A study of Mus musculus with 96 samples.

Results

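The genes described here encode 26 proteins of the small (40S) subunit of the cytoplasmic ribosome, taken by symbol from a given list, out of 24321 gene symbols in the deposited table. All 26 were found. The study sequenced RNA from 96 single cells of mouse marrow, each labelled as an erythroid precursor of C57BL/6 background and genotype Rpl11 +/lox, which the series calls haploinsufficient. The targeted gene belongs to the large subunit, and every cell shares this genotype. By the series' design, the span covered starts at the BFU-E, a committed progenitor that forms bursts of red cells in culture, and ends at basophilic erythroblasts, which still have a nucleus. Capture was on the C1 system, with SMART-Seq amplification. The labels name neither animals nor wild-type controls, and give no age and no driver for the floxed allele. The 96 cells therefore count as 1 sample. All values below describe cells, no test was possible, and SDs and intervals are over cells.

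The small subunit reads the messenger RNA. It has a head with a beak, a body and a platform, and each of its proteins is normally present in 1 copy per ribosome. Messengers of ribosomal proteins typically begin with a run of pyrimidines, the terminal oligopyrimidine tract, through which growth signals set their translation together. Red cell precursors build many ribosomes while they divide, then stop making them as they fill with haemoglobin. Loss of 1 copy of one of several of these genes causes Diamond-Blackfan anaemia in people, and loss of RPS14 underlies the anaemia of the 5q- syndrome.

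Promoters of 22 of the 26 genes were matched in RefSeq (build GRCm38.p6). Rps14, Rps20, Rps27a and Rps29 had no entry. The 30 bases around the annotated start (20 before it and 10 after it, on the gene's strand) are shown for 8 genes, with the longest unbroken run of C and T in capitals. Of the genes with an entry, Fau, Rps6, Rps24, Rps15a and Rps3 were detected most often, and Rps18, Rps21 and Rps13 least often, in the cells richest in globin transcripts described below.
Fau, chr19:6057927-6057956, plus strand: ggacgtgcgcgcccccaCTTCTTCCTCTTT
Rps6, chr4:86857358-86857387, minus strand: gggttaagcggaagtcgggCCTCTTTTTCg
Rps15a, chr7:118116138-118116167, minus strand: gcccaCTCTCTTTCTgccatcttccctcgc
Rps3, chr7:99483700-99483729, minus strand: gaacaCTTgcaagggtcgccgcgctgcgcg
Rps18, chr17:33955656-33955685, minus strand: acttatacgtcacttccgCTCTCTCTTCCa
Rps24, chr14:24490658-24490687, plus strand: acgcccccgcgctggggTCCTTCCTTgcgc
Rps21, chr2:180257359-180257388, plus strand: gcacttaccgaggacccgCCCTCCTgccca
Rps13, chr7:116334181-116334210, minus strand: cgcgcgagagcaaacgTCggtgagtggcgt
A run of at least 8 such bases in this window was present in 9 of 22 small-subunit genes (40.9%), in 16 of 34 large-subunit genes (47.1%) and in 12.4% of all 27025 promoters. Annotated starts can lie some bases from the start used in these cells, so a window without a run says only that the letters are not there. A counted run can also lie wholly before the annotated start, as in Rps15a, and need not be part of the messenger.

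Values are RPKM, in which the reads of a transcript are divided by its length in kilobases and by the mapped reads in units of 1000000, so that levels of different genes can be compared. A gene with several transcript rows was given its highest row, and it is called listed in a cell at 1 RPKM or more. Cells were kept with at least 1000 listed genes, which left out 27. A further 14 were set aside because they met the marker list of another lineage, that is, 50% or more of its 8 genes reached 10 RPKM. The lists met were neutrophil (10 cells), monocyte (11), mast cell or basophil (1) and T or NK cell (1), and some cells met more than 1. Among the 55 kept cells, some marker of another lineage reached that level too: of megakaryocytes in 10 cells, of monocytes in 4, of stroma or endothelium in 4, of neutrophils in 3, of T or NK cells in 3, and of mast cells or basophils and of stem cells in 1 each. No B cell marker did. Cell 68, the kept cell with the lowest Hba-a1, had 3 markers of another lineage at that level, against 1 late progenitor and 2 erythroblast markers. Each of the 14 cells set aside also had at least 2 erythroblast markers at that level, so this number does not show cell 68 to be erythroid. Estimated depth in the kept cells was 7025 at the median (1531 to 11657), in units of 1000 reads, and 3 reads on a transcript of 500 bases equal 0.854 RPKM (0.515 to 3.92). Reads copied by amplification carry no molecular identifiers here, so intervals below cover counting error only.

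The kept cells were ordered by Hba-a1, an alpha-globin gene whose transcript accumulates as red cells mature, and split into 3 groups of near-equal size, called globin-low, globin-middle and globin-high (low, middle and high Hba-a1 in the plots). The 19 globin-low cells had 723 to 307302 RPKM of Hba-a1 (median 161202), the 18 globin-middle cells 321044 to 439819 (median 406066), and the 18 globin-high cells 443162 to 570277 (median 486366). Erythroblast markers were listed in at least 50% of cells for 10 of 13 genes in globin-low, 11 in globin-middle and 11 in globin-high cells. These markers include Hba-a1 itself and the globin gene Hbb-b1, so the counts are not independent of the order. For late progenitor markers this count was 9, 9 and 7 of 10. For early progenitor markers it was 1 of 8 in each group. Of the markers of stroma and endothelium, 6, 6 and 7 of 8 were at 0 in all cells of the respective group, and the median of their summed level was 1.99, 0.19 and 0.29 on the log2 scale. The targeted gene Rpl11 was listed in 19, 13 and 6 cells, which does not check the label without wild-type cells. Other quantities moved with the order too. The number of genes listed per cell fell from a median of 3446 through 1848.5 to 1237. Median estimated depth was 6607, 7422 and 7963 in units of 1000 reads. This depth includes globin reads, and globin genes made up 53.0%, 85.5% and 90.8% of the summed RPKM at the median. Hba-a1 and Hba-a2 differed by at most 0.011 on the log2 scale in the 55 kept cells. Shared reads may therefore enter this sum more than once, and the globin share may be too high. The part of the gene number and of the globin share in the results below was not tested.

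All 26 small-subunit genes were listed in every one of the 19 globin-low cells, as were 46 of 47 large-subunit genes. Of the 4243 genes tested (those listed in at least 10 kept cells), 14.5% were. Full listing there was thus not particular to the small subunit. The medians below are those of the small-subunit genes. In globin-low cells they ran from 47.1 to 2063 RPKM. Rps18, a head protein, had the highest median at 2063 RPKM, followed by Rps14 (1348 RPKM), Rps2 (1242 RPKM) and Rps29 (1170.4 RPKM). The lowest medians were those of Rps15a (47.1 RPKM), Rps21 (275 RPKM), Rps12 (358 RPKM) and Rps24 (389 RPKM). The value of Rps15a is uncertain, since the row of its copy Rps15a-ps6 had nearly the same median (48.0 RPKM) and reads of the pair could have been divided. The spread over globin-low cells was narrowest for Rps26 (SD 0.46 on the log2(RPKM + 1) scale) and Rps27 (0.50), and widest for Rps13 (1.02) and Rps21 (0.98).

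**Figure D1:**
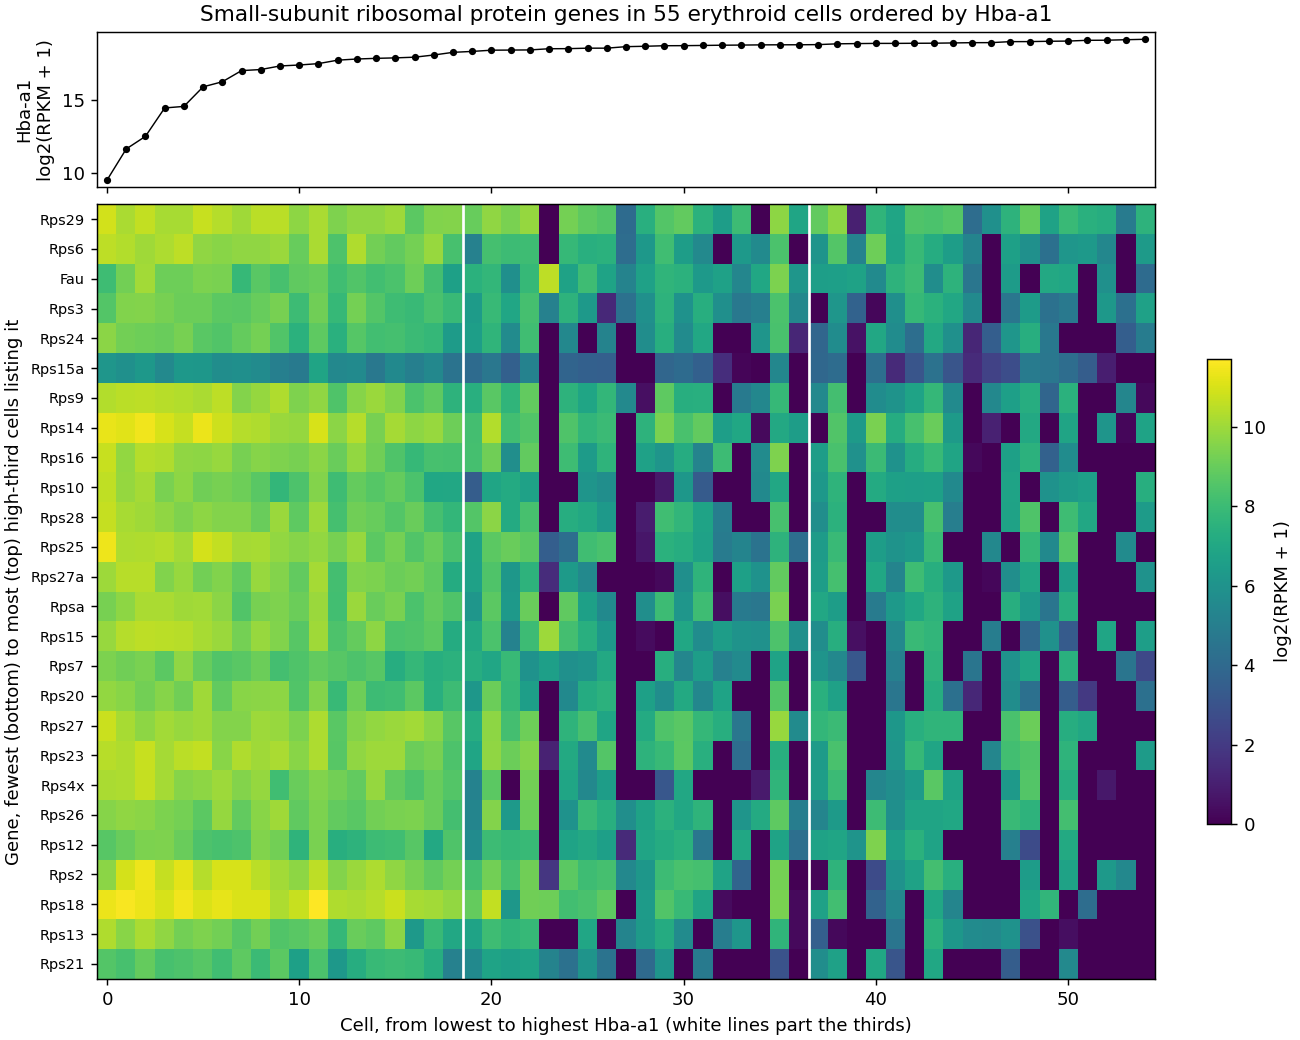
Level of each of the 26 genes (rows, log2(RPKM + 1), colour) in the 55 kept cells (columns), ordered by Hba-a1, whose level is drawn above. The 19 cells at the left list every gene, and dark cells for single genes spread from the first globin-middle cells to the right, with Rps29 at the top listed in all 18 globin-high cells.

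Along the order, all 26 genes differed by at least 1 on the log2 scale between globin-high and globin-low cells, in the same direction within each of the 3 run codes of the sample descriptions. The titles and column headers give all 96 cells the single code SCP-1706080, so that this division rests on the descriptions alone. All 26 were lower, as were 70.3% of all genes tested, while 0.99% were higher, so the count alone does not set these genes apart. The median over the 26 genes was -5.33 (range -7.77 to -2.89), against -2.17 over all genes tested and -5.62 over 47 large-subunit genes, all 47 of which also passed. The small-subunit median was -4.94 in SCP-1706080, -5.12 in SCP-170608 and -5.88 in SCP-1706013. These codes held only 11, 3 and 4 globin-high cells, and 6, 8 and 5 globin-low cells. Most of the difference lay between the globin-low and globin-middle cells, where the median was -3.91. Between globin-middle and globin-high cells it was -1.62, and 22 of 26 genes had the lower mean in globin-high cells. The 11 proteins of the head had a median of -5.15 and the 15 of the body and platform -5.38, and their ranges overlapped.

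The difference was smaller among cells with many genes. With only the 25 cells of at least 2000 listed genes, split again into groups of 9, 8 and 8 cells, the small-subunit median was -2.21 and that over all genes tested -1.78. Each of these cells listed at least 23 of the 26 genes. Their Hba-a1 was 723 to 469528 RPKM (median 212180) and they include 1 of the 18 globin-high cells, so gene number and globin level cannot be told apart there. After removing globin genes and rescaling every cell to a total of 1000000, the small-subunit median was -4.98 and that over all genes -2.21, while single genes moved more, such as Rps29 (from -2.94 to -1.70) and Rps6 (from -3.93 to -2.95).

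As a share of the summed RPKM of all non-globin genes, the 26 genes together made up 2.04% to 5.52% in globin-low cells (median 3.60%). The share was 0.103% to 4.86% in globin-middle cells (median 1.07%) and 0.103% to 1.91% in globin-high cells (median 0.753%). The globin-low and globin-high ranges did not overlap. In the 14 cells of other lineages, where globin made up 0.202% of the summed RPKM at the median, the share was 3.28% (2.43% to 8.35%), within a range that overlapped that of the globin-low cells.

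**Figure D2:**
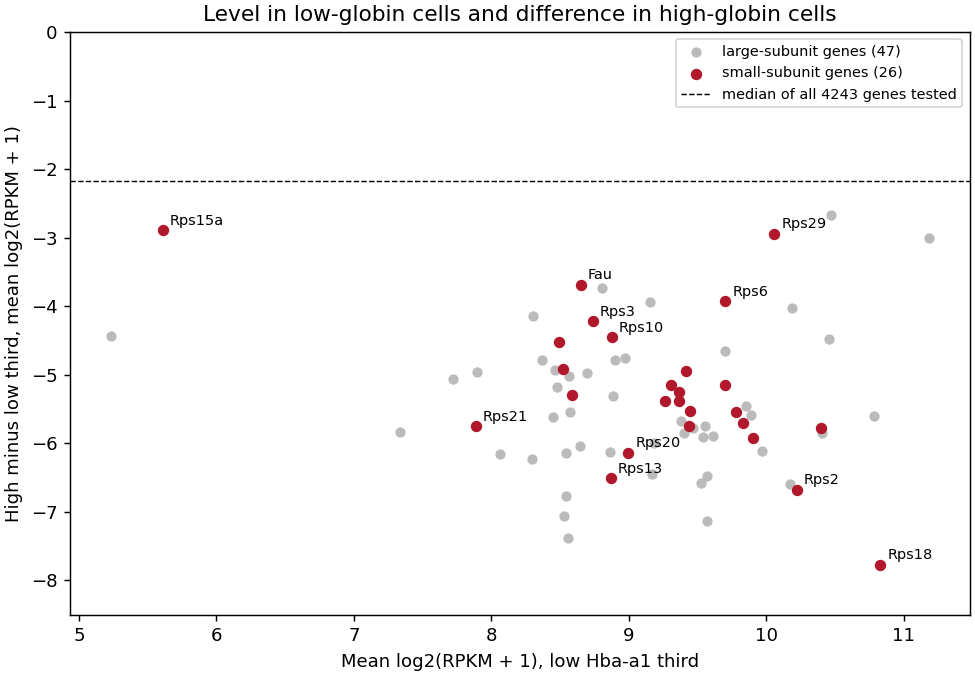
Difference in mean log2(RPKM + 1) between globin-high and globin-low cells (vertical axis) against the mean log2(RPKM + 1) in globin-low cells (horizontal axis), for 26 small-subunit and 47 large-subunit genes, with a dashed line at the median of all genes tested (-2.17). Both sets fill the same range, and Rps15a, Rps29 and Fau lie highest among the small-subunit genes, at -2.89, -2.94 and -3.68.

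Rps18, Rps2, Rps13 and Rps20 had the largest differences. Rps18 had 898, 2063 and 3358 RPKM as lowest, median and highest value in globin-low cells, 0, 262 and 1606 in globin-middle cells, and 0, 6.01 and 291 in globin-high cells. Its mean log2 value went from 10.83 ± 0.57 (SD, 19 cells) to 3.06 ± 3.32 (18 cells), a difference of -7.77. No globin-high cell reached the lowest globin-low cell, and the gene with the highest globin-low median was among the 3 least often listed in globin-high cells.

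Rps2, a body protein at the messenger entry, had 455, 1242 and 2702 RPKM in globin-low cells and 0, 24.2 and 293 RPKM in globin-high cells, a difference of -6.68. Its globin-middle cells still held 283 RPKM at the median, and 16 of 18 listed it, more than in globin-high cells, where 10 did. Rps13, a body protein whose introns carry small nucleolar RNAs, went from a median of 521 RPKM (79.2 to 1285) through 59.5 RPKM (0 to 267) to 0.266 RPKM (0 to 178). The difference was -6.51, and 1 globin-high cell lay above the lowest globin-low cell. Rps20, a head protein, went from 572 RPKM (168 to 1057) through 83.4 RPKM (0 to 541) to 6.50 RPKM (0 to 173), a difference of -6.13.

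Groups did not overlap for 5 of the 26 genes, namely Rpsa, Rps2, Rps3, Rps18 and Rps26, against 0.919% of all genes tested. A gene at 0 in any globin-low cell cannot be separated in this way. All 26 members were listed in every globin-low cell, against 14.5% of all genes tested, so these shares are not directly comparable. Rpsa, which is also known as a laminin receptor, had 288 to 1184 RPKM in globin-low and 0 to 187 RPKM in globin-high cells. Rps26, which contacts the messenger at the exit of the channel, was only just separated, with 299.9 RPKM in the lowest globin-low cell and 299.8 RPKM in the highest globin-high cell. The same held for Rps3, at 226.01 RPKM and 225.75 RPKM. In the other 21 genes between 1 and 6 globin-high cells lay above the lowest globin-low cell.

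Rps29, a small zinc-binding protein of the head, was the gene most often listed. It had 429.6, 1170.4 and 1921 RPKM as lowest, median and highest value in globin-low cells, 0, 376 and 919 in globin-middle cells, and 1.01, 190.2 and 834 in globin-high cells. All 18 globin-high cells listed it (100%, exact interval 81.5% to 100%), and 17 of 18 did at 10 RPKM. Its mean log2 value was 10.06 ± 0.53, 7.34 ± 3.03 and 7.12 ± 2.07, with a difference of -2.94 from low to high, or -1.70 without globin genes and rescaled. Of the kept cells, 2 did not list it, both globin-middle, and one of these (cell 94) had the lowest estimated depth of all kept cells.

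Rps6, the substrate of the S6 kinases and so a classic readout of growth signalling, was listed in 15 globin-middle and 16 globin-high cells. Its medians were 874 RPKM (319 to 1506), 83.7 RPKM (0 to 341) and 76.1 RPKM (0 to 557), with a difference of -3.93 from low to high and of 0.043 from middle to high. For Rps6 the difference thus lay between the globin-low and globin-middle cells.

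Rps3, a head protein at the messenger entry that also acts in DNA repair, had medians of 427 RPKM (226 to 740), 70.7 RPKM (1.57 to 337) and 36.7 RPKM (0 to 226). It was listed in all 18 globin-middle and in 14 globin-high cells, with a difference of -4.22. Rps24, a body protein, was at 389 RPKM (86.4 to 824), 49.9 RPKM (0 to 325) and 21.1 RPKM (0 to 159.7), and was listed in 13 and 14 cells.

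Rps21 was the least often listed gene in globin-high cells. It had 34.8, 275 and 499 RPKM in globin-low, 0, 20.3 and 109 in globin-middle, and 0, 0 and 127 in globin-high cells, and 7 of 18 globin-high cells listed it (38.9%, 17.3% to 64.3%). This interval lies below that of Rps29 and Rps6 (65.3% to 98.6%), but it overlaps those of the other 23 genes, such as Fau (52.4% to 93.6%). Rps13 was listed in 8 globin-high cells and Rps18 in 9. A further 13 genes were listed in 10 or 11 cells, and the remaining 10 in 12 or more. Apart from the ends, the order of neighbours is therefore within counting error.

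**Figure D3:**
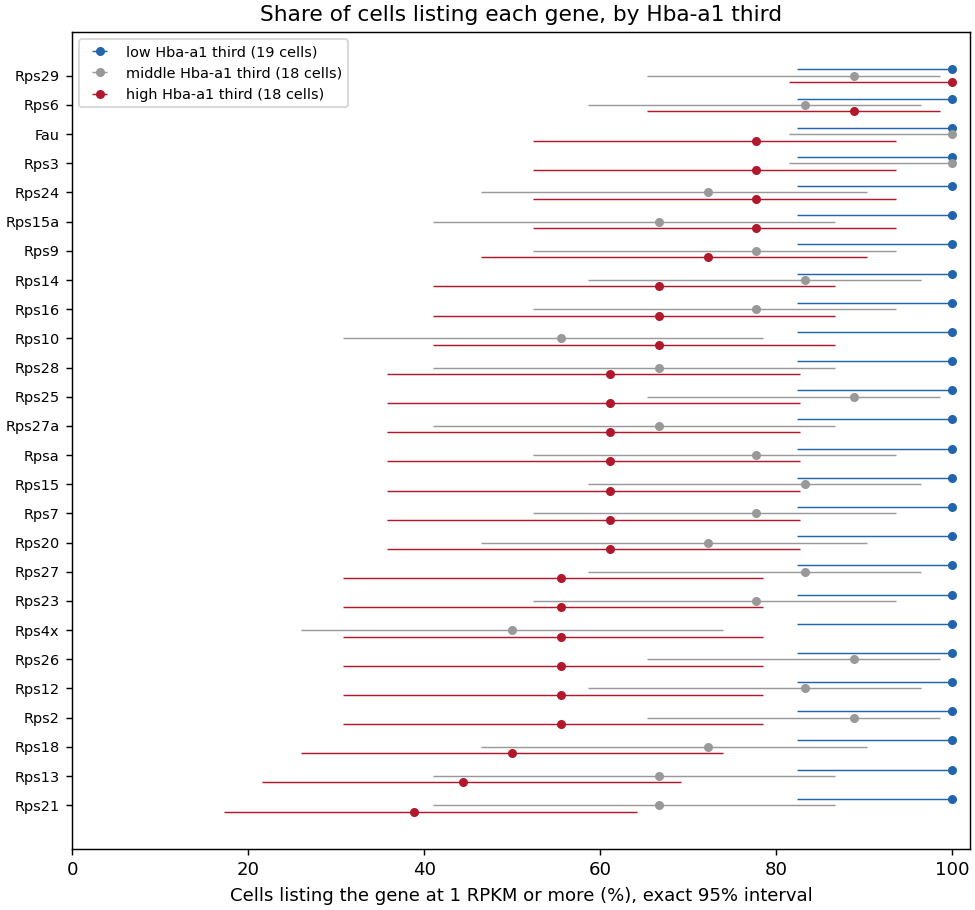
Share of cells that list each gene at 1 RPKM or more in globin-low (19 cells), globin-middle (18) and globin-high (18) cells, with exact 95% intervals that cover counting error only. Globin-low cells are at 100% for every gene, and globin-high cells run from 38.9% for Rps21 to 100% for Rps29.

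Loss did not follow a single sequence along Hba-a1. The first cell in the order that did not list all 26 genes was a globin-middle cell with 342371 RPKM of Hba-a1, and Rps4x alone was not listed in it. Rps4x, the X-linked gene of a body protein, was not listed in 9 of 18 globin-middle cells, more than for any other member, nor in 8 globin-high cells. Its median was 743 RPKM (277 to 1626) in globin-low, 4.40 RPKM (0 to 589) in globin-middle and 47.8 RPKM (0 to 422) in globin-high cells. Rps10, a beak protein, had the same shape, with medians of 498 RPKM (124 to 1534), 9.65 RPKM (0 to 143) and 78.4 RPKM (0 to 197), and with 10 and 12 cells listing it. In all, 6 genes were listed in more globin-high than globin-middle cells: Rps4x, Rps6, Rps10, Rps15a, Rps24 and Rps29. Conversely, Rps2 and Rps26 went from 16 cells to 10, and Rps12 and Rps27 from 15 to 10.

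The number of members listed per cell shows the same spread. Globin-middle cells listed 9 to 26 (median 24), with 4 cells listing all, and globin-high cells listed 7 to 26 (median 19), with 2 cells listing all. No kept cell listed none. Of 30 kept cells that listed some but not all members, 28 listed Rps29, 26 listed Fau, 26 listed Rps3 and 25 listed Rps6, whereas 13 listed Rps4x, 13 Rps21 and 14 Rps13. Within these cells, 16 listed Rps29 without Rps21 and 1 listed Rps21 without Rps29. Similarly, 12 listed Rps6 without Rps4x and 0 did the opposite, 10 listed Rps6 without Rps18 and 1 the opposite, and 14 listed Rps3 without Rps13 and 2 the opposite. These pairs were chosen after the values were seen.

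The level of a gene in globin-low cells showed little relation to how often it was listed in globin-high cells. Over the 26 genes, Spearman's rho between the median RPKM in globin-low cells and the share of globin-high cells listing the gene was -0.083. Between the shares listed in globin-middle and in globin-high cells it was 0.27. For the mean log2 level in globin-low cells, rho was 0.58 with that in globin-middle and 0.38 with that in globin-high cells. With the difference from low to high it was -0.43, but the globin-low level is itself part of that difference. Genes of a set share cells and reads and are not independent, so these values describe this sample only. The levels themselves were similar in the cells of other lineages, where rho between their median RPKM and that of the globin-low cells was 0.94. A run of 8 or more C and T bases anywhere in the 30 bases around the annotated start was present in 9 genes. These were listed in 9 to 16 globin-high cells (median 13), and the 13 genes without one in 7 to 14 (median 10). The ranges overlapped, and single genes went both ways. Rps3, with a longest run of 3 bases, was listed in 14 globin-high cells, whereas Rps25, Rps18 and Rps27, with runs of 12, 11 and 9 bases, were listed in 11, 9 and 10.

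Fau and Rps27a are both made as fusions, Fau with a ubiquitin-like domain and Rps27a with ubiquitin itself. Fau had medians of 421 RPKM (101 to 1091), 118 RPKM (36.8 to 1503) and 72.1 RPKM (0 to 263). It was listed in all 18 globin-middle and in 14 globin-high cells, with differences of -1.48 from low to middle and -2.21 from middle to high. Its globin-middle maximum of 1503 RPKM came from cell 94, which listed 10 of the 26 genes. Rps27a had medians of 714 RPKM (149 to 1421), 59.5 RPKM (0 to 484) and 57.8 RPKM (0 to 303), and was listed in 12 and 11 cells. In the 30 partly listing cells, 10 listed Fau without Rps27a and 1 the opposite.

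A list of 8 members linked to inherited or acquired anaemia in people was taken, which need not be complete. All 8 were lower, as were 70.3% of all genes tested. Their median was -5.22, near that of the whole set. Rps14, a platform protein, had 554 to 2793 RPKM in globin-low cells (median 1348), a median of 229 RPKM in globin-middle cells (0 to 1336) and of 83.2 RPKM in globin-high cells (0 to 649), with a difference of -5.77 and 12 globin-high cells listing it. Rps27, a zinc-binding body protein, went from 966 RPKM (404 to 1747) through 181 RPKM (0 to 946) to 101 RPKM (0 to 538), a difference of -5.54. It was listed in 10 globin-high cells, and in 9 of them at 100 RPKM or more, while the other 8 cells were at 0. Rps26 had medians of 645 RPKM (299.9 to 1053), 118 RPKM (0 to 739.5) and 47.2 RPKM (0 to 299.8), a difference of -5.38.

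Rps7, a body protein, had medians of 409 RPKM (157 to 875), 63.8 RPKM (0 to 239) and 15.3 RPKM (0 to 191). It differed by -5.29 and was listed in 14 globin-middle and 11 globin-high cells. Rps28, a head protein, had medians of 706 RPKM (217 to 1628), 123 RPKM (0 to 827) and 52.3 RPKM (0 to 354), differed by -5.15 and was listed in 12 and 11 cells. For Rps7 and Rps28, some globin-high cells lay within the globin-low range. Rps24 differed by -4.53, Rps10 by -4.45 and Rps29 by -2.94.

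Rps27 has copies in the table. Rps27rt had the same value as Rps27 within 0.01 on the log2 scale in all 55 kept cells, so these were not told apart. Rps27l, a paralog known as a p53 target, was separate, with a largest gap of 7.02 to Rps27 in a single cell. Rps27l had 897 RPKM (188 to 2706) in globin-low and 111 RPKM (0 to 372) in globin-high cells, a difference of -4.76, and was listed in 12 globin-high cells against 10 for Rps27. The paralog Rps4l was listed at 0 in all kept cells.

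Rps23, at the decoding centre, had medians of 1050.4 RPKM (342 to 1709), 149.6 RPKM (0 to 859) and 54.6 RPKM (0 to 353), and differed by -5.92. Of the other members not yet described, Rps15 differed by -5.74, Rps25 by -5.71, Rps9 by -5.15, Rps16 by -4.94 and Rps12 by -4.91. They were listed in 10 to 13 globin-high cells, with medians there of 19.2 RPKM (Rps12) to 61.2 RPKM (Rps16). Rps12, a beak protein, had medians of 358 RPKM (135 to 713), 111 RPKM (0 to 263) and 19.2 RPKM (0 to 698), and was listed in 15 globin-middle and 10 globin-high cells. Its highest globin-high cell thus came close to its highest globin-low cell. That was cell 93, with the lowest estimated depth of the globin-high cells (3319 in units of 1000 reads). The same cell gave the highest globin-high values of Rps6 and Rps14. Rps15a had the lowest globin-low median and, with the pseudocount of 1 RPKM, the smallest difference of the 26 genes. Its medians were 47.1 RPKM (21.0 to 114), 11.0 RPKM (0 to 41.6) and 7.49 RPKM (0 to 28.2), and it was listed in 12 globin-middle and 14 globin-high cells. The difference was -2.89 on a low level, where the added 1 RPKM understates the change. With a pseudocount of 0.1 the smallest difference was that of Rps29, at -3.00, against -3.60 for Rps15a.

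Factors that assemble the small subunit were scarcer throughout. Of 26 such genes 14 were listed in at least 10 kept cells, of which 13 passed downward and 0 upward. Over all genes tested these shares were 70.3% and 0.99%. The median difference of the tested factors was -3.16, against -2.17 over all genes. Nop56, a core protein of the methylating nucleolar particles, had 79.5 RPKM at the median in globin-low cells (0 to 360) and was listed in 15 globin-low, 8 globin-middle and 1 globin-high cells, a difference of -4.72. Emg1, a methyltransferase of 18S RNA, was listed in 18, 12 and 6 cells (-4.65), and Fbl, the methylating enzyme of the same particles, in 11, 0 and 0. Bysl, needed for late 40S maturation, was still listed in 19, 13 and 12 cells (-3.47). The kinase gene Riok3 was the one tested factor that did not pass, at -0.40, with 8, 9 and 8 cells listing it.

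The number of members listed was set beside the number of all genes listed in each cell. Of the 30 kept cells with 1000 to 2000 genes, which all had at least 364620 RPKM of Hba-a1, the count ran from 7 to 26 with a median of 17.5. In the 25 kept cells with more genes it was 23 to 26. Cells of other lineages listed 22 to 26 (median 26), and the one of these with the fewest genes, 1842, listed 24. It was the only cell of another lineage under 2000 genes.

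**Figure D4:**
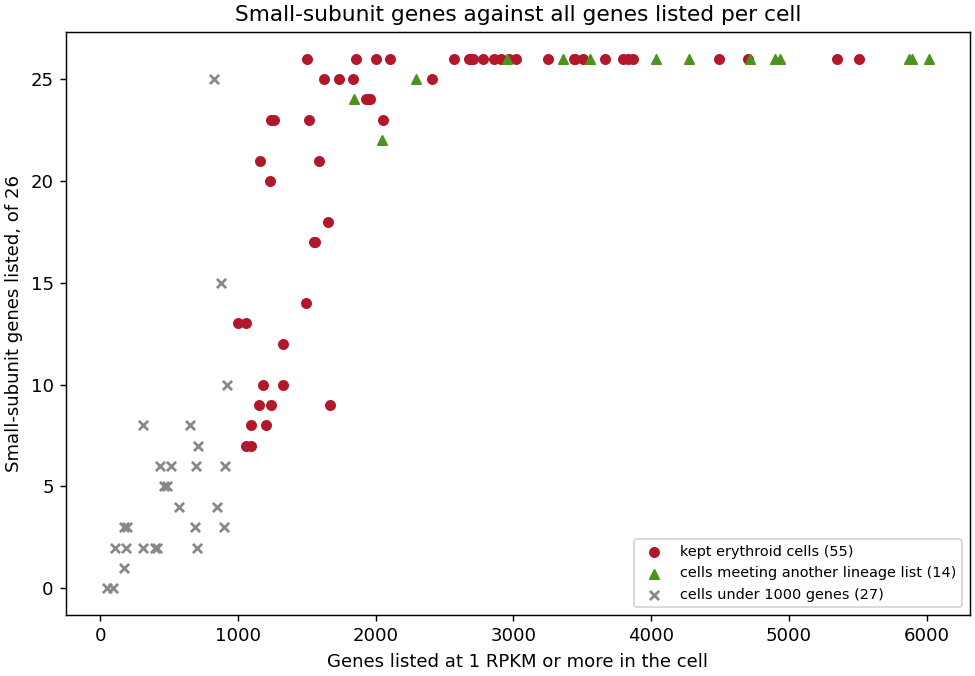
Number of the 26 small-subunit genes listed at 1 RPKM or more (vertical axis) against the number of all genes listed in the cell (horizontal axis), for 55 kept cells, 14 cells that met another lineage list and 27 cells under 1000 genes. Cells of other lineages sit at 22 to 26, and kept cells under 2000 genes spread from 7 to 26.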

How the data were processed

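One table was analysed, with 34899 transcript rows for 24321 gene symbols in 96 cells. Per the file headers and name, the deposited values are RPKM of RefSeq transcripts on build mm9, made by the authors. TopHat2 (2.0.9) is named in the submitters' processing notes, and the counting step is not given in the sources used here. A gene took its highest transcript row. Differences are of mean log2(RPKM + 1), globin-high minus globin-low cells. A call needed 1 log2 unit and 1 sign across run codes, where a code had 3 or more cells in both groups. The depth estimate, and a difference of mean log2 values coded separately, were run on simulated data. The rule on run codes, the shares listed and the promoter windows were not. Depth was estimated from the steps between low values, with GENCODE transcript lengths found for 97.6% of rows. Values within 0.06 of a whole read made up 68.4% of low values in the median kept cell. It is not known if 1 unit is a read or a read pair. Intervals are exact Clopper-Pearson at 95%. Python 3.11.15, pandas 2.3.3 and SciPy 1.17.1 were used. The members and lists were chosen with earlier results of these data known. All members are described. Full values are given for those with the 4 highest and lowest median levels over kept cells, shares listed (ties included) and differences, for the ubiquitin fusions and for the anaemia-linked genes. Alternatives covered pseudocounts, scaling, thresholds, splits, orderings, gene minimums and each run code left out. No coordinates of mm9 were used. Some genes of the lists are not reported here.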

Additional observations from a re-analysis of the deposited data

Results flagged for a closer look

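Cells outside the comparison also carried small-subunit transcripts. The 14 cells that met another lineage list had no part in the comparison along Hba-a1, and they listed a median of 26 of the 26 genes. The 27 cells under 1000 genes listed a median of 4 (0 to 25), and 2 of them listed none. One of these, cell 45, listed 25 of the 26 genes with 829 genes in all and 682 RPKM of Hba-a1, and the 26 genes made up 8.56% of its non-globin RPKM. The estimated depth of the 24 such cells with an estimate was 599 at the median in units of 1000 reads, against 7025 in the kept cells.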

How the results depend on the processing

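The count of 26 lower genes was the same in all 20 other settings and in 1 added after seeing the data, which left out the globin-middle cells 73 (all 26 genes listed) and 94 (lowest depth). No difference changed sign. The small-subunit median of -5.33 was -6.65 with a pseudocount of 0.1, -3.88 with 10, -2.21 in cells with at least 2000 genes and -3.82 with the order split into 2 groups. The large-subunit median of -5.62 was -6.93, -4.17, -2.25 and -4.20 in these settings, and -4.30 with a split at 100000 RPKM of Hba-a1. The median share of globin-high cells listing a gene, 61.1%, was 100% with at least 2000 genes. Of the 8 genes most often listed in globin-high cells, 3 were among the first 8 in that setting and 6 to 8 in the others. Ties, broken by mean level, set part of these sets: at 2000 genes the median gene was listed in every globin-high cell, and in the reported order 3 genes shared the eighth place (12 cells). The counts thus say little about stability. Without globin genes the difference of Rps29 was -1.70. The share of all tested genes called lower ran from 15.2% with no low-value filter (24321 genes) to 79.1%, and was 46.7% with a pseudocount of 10. Without SCP-1706080, SCP-170608 or SCP-1706013 the small-subunit median was -5.81, -5.05 and -5.31. No paired analysis was possible because all 96 cells form 1 group. With 1 sample, no wild-type cells and no named animals to compare with, the effect of the genotype could not be assessed.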
